A study of Mus musculus with 12 samples.

Results

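Isolated hepatocytes of wild-type (WT) mice were compared with WT whole liver at postnatal day 14. The 6 libraries compared, WT hepatocyte replicates 1 to 3 and WT whole liver replicates 1 to 3, were picked by their labels from the 12 RNA libraries of the study and not by any measured value. The other 6 libraries are the same pair of preparations from Cdk1 Liv-/- mice, made by crossing Cdk1 flox/flox mice to Albumin-Cre mice, so that Cdk1 is removed in cells that express albumin. They serve here as a second pair of groups for the same contrast and share no library with it. According to the study's methods all mice were males, and the labels give standard diet and specific pathogen-free housing. Hepatocytes were isolated by a protocol that the methods cite and do not describe, with no sorting step named, and were pelleted before TRIzol was added, while whole liver was snap-frozen tissue homogenized in TRIzol. The labels do not say whether each library came from a separate mouse or whether a hepatocyte and a whole liver library came from the same one, so p-values measure the spread between samples.

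Hepatocytes are the parenchymal cells of the liver and make most plasma proteins, bile acids and detoxifying enzymes. Around them lie sinusoidal endothelial cells, Kupffer cells (resident macrophages) and stellate cells (which store vitamin A and make matrix), while portal tracts hold bile duct cells, vessels, fibroblasts and lymphocytes. A hepatocyte preparation is usually made by loosening the tissue with enzymes and collecting the heavy cells, so that transcripts of the remaining cell types and of the framework of the portal tract are expected to be scarcer in it than in whole liver. The comparison asks which transcripts of the young liver lie outside the hepatocyte fraction, and which are higher in the isolated cells. Fewer cells of a type and less RNA per cell cannot be told apart in such bulk libraries.

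Polyadenylated RNA was read as single-end reads of 75 bp and deposited as FPKM, fragments counted per length of transcript and per size of library. The table lists 47069 genes, of which 28019 have a value other than 0 somewhere in the 12 libraries. The test took in the 17386 genes whose FPKM, averaged over these 12, reached 0.1. Read counts are not part of the table, and the depth was read from the steps between its lowest values. On 1 kb of transcript an FPKM of 1 stood for 49.9, 38.6 and 47.4 reads in WT hepatocyte replicates 1, 2 and 3 and for 41.7, 41.8 and 43.4 reads in the WT whole liver libraries. Values below 1 FPKM on short transcripts therefore rest on few reads. Summed over all genes, FPKM came to 657038, 684175 and 689278 in the hepatocyte libraries and 695446, 695678 and 693683 in whole liver.

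WT hepatocyte replicate 3 stood apart from the other hepatocyte libraries and lay nearest to whole liver. Over 11947 genes, the median absolute log2 difference from the mean of the WT whole livers was 0.22, 0.18 and 0.15 in hepatocyte replicates 1, 2 and 3, against 0.06, 0.06 and 0.07 in the whole liver libraries themselves. Markers of non-parenchymal cells were also higher in it. For a list of genes, the level in a library is given below as the median difference of its tested genes from the mean of the WT whole livers, put back on the linear scale, so that 1 equals that mean. The 22 Kupffer cell and macrophage markers stood at 0.636, 0.364 and 1.10 in hepatocyte replicates 1, 2 and 3, the 22 stellate cell markers at 0.563, 0.339 and 1.02, and the 23 sinusoidal endothelial markers tested at 0.844, 0.638 and 1.68. Results below are therefore given with all 6 libraries and, in most cases where replicate 3 changes a call or moves a list, also without that library. Outside the WT comparison, Cdk1 Liv-/- whole liver replicate 3 went against the sex given in the methods. Xist, which is transcribed from the inactive X chromosome of females, stood at 158 FPKM in it and at no more than 0.14 in the other 11 libraries, while all mice are described as males. Counts of calls and list medians printed for the Cdk1 Liv-/- comparison are given with and without it, as are several of its named genes.

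**Figure D1:**
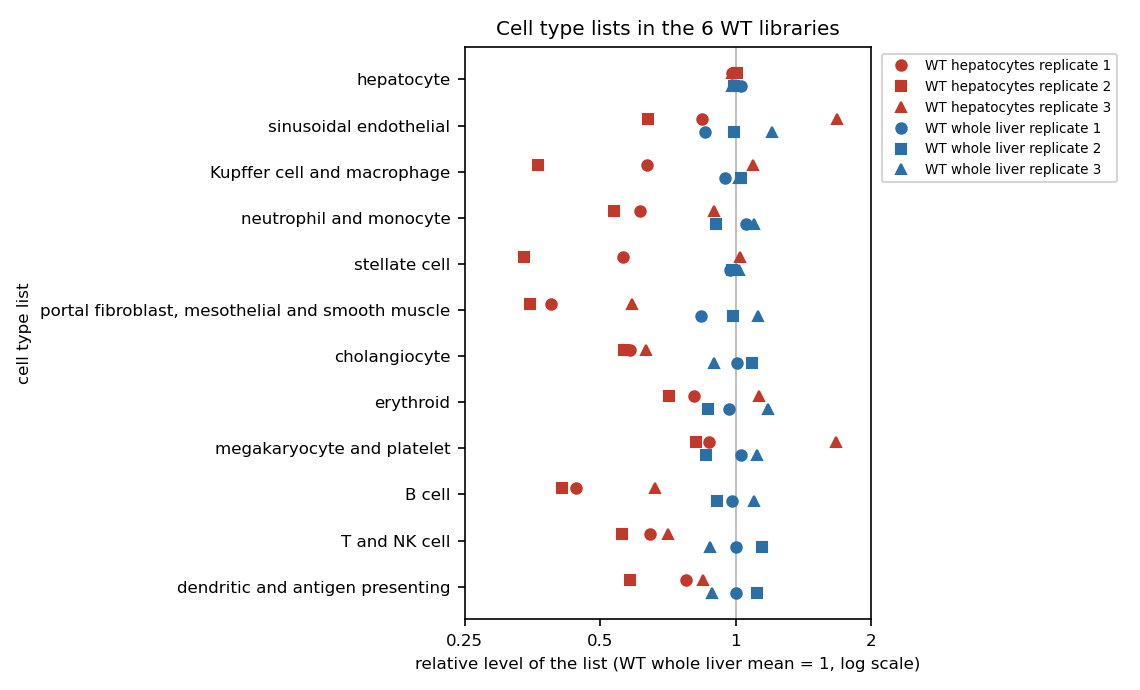
Level of each cell type list (y axis) in the 6 WT libraries, relative to the mean of the WT whole livers (x axis, log scale, 1 = that mean), with 1 point per library, hepatocytes in red and whole liver in blue. WT hepatocyte replicate 3 lies to the right of WT hepatocyte replicates 1 and 2 for the Kupffer cell, stellate cell and endothelial lists, with levels of 1.10, 1.02 and 1.68.

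Hepatocyte markers had similar levels in both preparations. The list holds 30 genes of plasma proteins and amino acid breakdown, and albumin (Alb) was its most abundant member. Summed FPKM of the list was 145265, 160049 and 155919 in the hepatocyte replicates and 154600, 150665 and 153400 in the whole liver replicates, so the groups overlapped. Alb (ENSMUSG00000029368, chromosome 5, 90460897 to 90476602) itself stood at 60008, 64298 and 62222 FPKM in hepatocytes and 58998, 56843 and 61172 in whole liver. Its log2 fold change, hepatocytes minus whole liver on log2(FPKM + 0.5), was 0.08 (SE 0.20, limma adjusted p = 0.852). The uptake receptors Asgr1 (for desialylated glycoproteins) and Slc10a1 (for bile acids) had log2 fold changes of -0.10 and 0.04. Over the list the median was 0.01 (-0.02 to 0.00 over the fits that leave out 1 library), beside -0.10 for all genes tested, and limma called 0 of 30 genes, while 1 was higher and 5 lower at an unadjusted p under 0.05. The labelled cell type thus had its markers in all 6 libraries, and none of the 46 defining genes chosen for the 12 cell type lists was listed at 0 in any of the 12 libraries, hepatocytes included.

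Over all genes, the difference between the preparations was mostly one of loss. A gene was called when its limma adjusted p was 0.1 or less and its log2 fold change reached 1 or -1, with n = 3 in each group. By this rule 7 genes were higher in hepatocytes (0.0403% of those tested) and 74 were lower (0.426%), and in all 81 the 3 hepatocyte libraries did not overlap with the 3 whole liver libraries. Of all genes tested, 5.28% had every hepatocyte library above every whole liver library, and 20.7% had every one below. Passing the adjusted p alone were 18 higher and 247 lower genes, and 481 and 2791 had an unadjusted p under 0.05. Of all genes 68.1% had a log2 fold change below 0, the share to hold against the counts below 0 given for lists. The median log2 fold change of all genes was -0.10 and became 0.00 when FPKM were divided by median-ratio size factors, under which 4 genes were called higher and 36 lower. A fold change on this scale understates the difference for genes near 0.5 FPKM or below.

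Both counts changed strongly when 1 library was left out. Without hepatocyte replicate 3, limma called 55 genes higher and 472 lower, which held all 7 and 73 of the 74. Without hepatocyte replicate 1 it called 1 and 0, without hepatocyte replicate 2 it called 3 and 4, and without whole liver replicates 1, 2 or 3 it called 1 and 27, 1 and 5, and 4 and 30. Lars2 was the 1 gene called in all 6 of these fits. The counts for lists in single fits are to be read beside these totals. Calls below are therefore given with the highest adjusted p, or its range, over the 6 fits that each leave out 1 library.

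**Figure D2:**
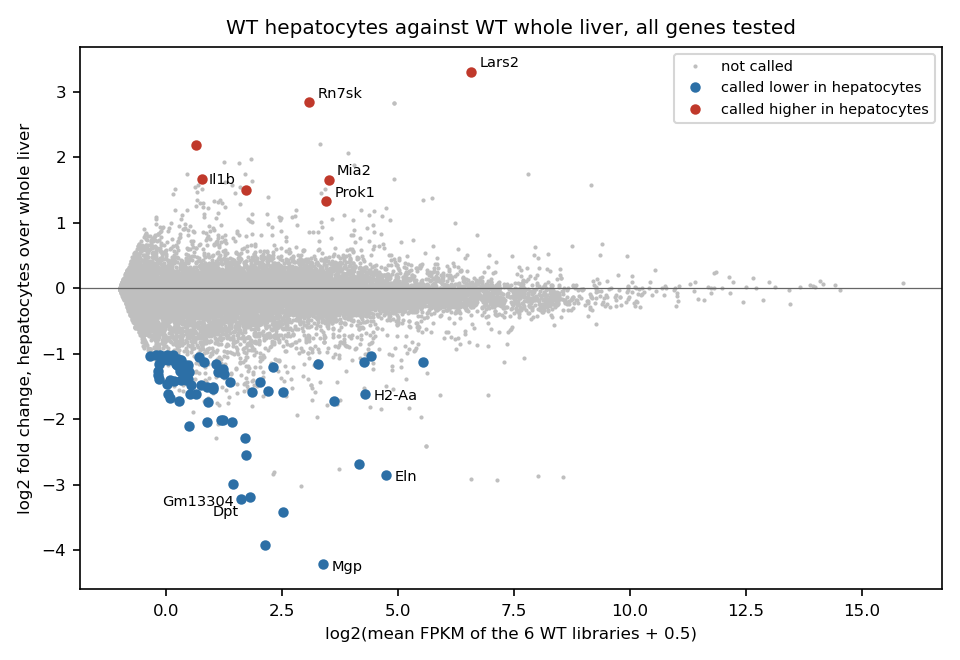
Log2 fold change, WT hepatocytes minus WT whole liver (y axis), against log2 of the mean FPKM of the 6 libraries plus 0.5 (x axis), for each of the 17386 genes tested. The 7 genes called higher and the 74 called lower are coloured, and Lars2 (3.31) and Mgp (-4.21) mark the ends.

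Among the genes furthest below whole liver were several of elastic and collagenous matrix. Portal fibroblasts and the smooth muscle of vessel walls lay down elastic fibres and the small proteins that bind them, and neither is part of the hepatocyte plate. Mgp (ENSMUSG00000030218, chromosome 6, 136872435 to 136875823, mm10), matrix Gla protein, which keeps vessel walls from calcifying, stood at 0.72, 0.05 and 1.13 FPKM in hepatocytes and 12.5, 21.2 and 24.4 in whole liver. Every hepatocyte value lay far below every whole liver value. The log2 fold change was -4.21 (SE 0.45, limma adjusted p = 0.0461), the lowest of all genes tested. Elastin itself (Eln, ENSMUSG00000029675, chromosome 5, 134702593 to 134747323) was measured at 6.44, 3.57 and 9.2 FPKM in hepatocytes against 42.8, 48.2 and 48.3 in whole liver, again with no overlap and a log2 fold change of -2.85 (adjusted p = 0.0461). Mfap4, a microfibril-associated protein (ENSMUSG00000042436, chromosome 11, 61485431 to 61488900), had 0.5, 0.09 and 1.03 FPKM against 7.61, 10.3 and 12.0, and fell by 3.42 on the log2 scale (adjusted p = 0.0461). Dermatopontin (Dpt, ENSMUSG00000026574, chromosome 1, 164796644 to 164824266), which binds decorin and collagen fibres, had 0.18, 0.02 and 0.4 FPKM against 4.57, 6.2 and 6.6. It fell by 3.19 (SE 0.24, adjusted p = 0.0279). Adamtsl2, a secreted protein that binds microfibrils, had 0.38, 0.07 and 1.19 FPKM against 4.92, 4.14 and 6.24 (log2 fold change -2.55, adjusted p = 0.0840), also without overlap.

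Not all of the lowest genes are matrix genes. The microRNA gene Gm22175 was listed at 0 in all 3 hepatocyte libraries and at 5.19, 5.18 and 12.9 FPKM in whole liver (log2 fold change -3.92, adjusted p = 0.0345), the pseudogene BC023105 had 6.12, 3.66 and 2.82 FPKM against 30.8, 44.7 and 16.5 (-2.68, adjusted p = 0.0840), and the RNA gene Mir142hg 0.31, 0.4 and 1.19 against 4.91, 3.43 and 6.25 (-2.29, adjusted p = 0.0827). Gm22175 spans chromosome 12, 113425150 to 113425227, hardly more than a read of 75 bp. Its FPKM may therefore rest on very few reads, and the size of its fold change is uncertain. In Cdk1 Liv-/- whole liver it had 4.53, 4.55 and 0 FPKM. The call of Gm22175 ended without hepatocyte replicates 1 (0.180) or 2 or whole liver replicate 2. That of BC023105 held without hepatocyte replicate 3 or whole liver replicate 3, and that of Mir142hg without hepatocyte replicate 3 alone, with an adjusted p of up to 0.289 and 0.261, both without whole liver replicate 2.

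Most of these calls ended in some of the fits that leave out 1 library. Such fits have fewer samples, and an adjusted p depends on all genes of its fit. It does not measure the weight of the library left out. Over the 6 fits that leave out 1 library the adjusted p ran from 0.0315 to 0.237 for Mgp, 0.0259 to 0.237 for Eln, 0.0285 to 0.237 for Mfap4 and 0.0247 to 0.177 for Dpt. The lowest value came in each case without hepatocyte replicate 3. The highest came without whole liver replicate 2 for Mgp, Eln and Mfap4 and without hepatocyte replicate 1 for Dpt. For Mgp, Mfap4 and Adamtsl2 the call held in 1 of the 6 fits, the one without hepatocyte replicate 3, and the adjusted p of Adamtsl2 reached 0.294 without whole liver replicate 2. For Eln it held in 2, without hepatocyte replicates 2 or 3, and for Dpt in 4, ending without hepatocyte replicate 1 (0.177) or whole liver replicate 2 (0.144). The log2 fold change of Mgp lay between -4.55 and -3.76 in all of them, so the size of the difference moved far less than its p.

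Taken as a list, portal fibroblast, mesothelial and smooth muscle markers were the lowest of the 12 cell type lists. All 18 lay below 0, with a median of -1.24, 4 were called lower (Mgp, Mfap4, Eln and the fibulin Fbln2) and 14 did not overlap. Relative to whole liver they stood at 0.388, 0.348 and 0.589 in hepatocyte replicates 1, 2 and 3, and their most abundant gene was Eln. Their summed FPKM was 22.2, 16.1 and 33.0 in hepatocytes and 98.4, 122 and 132 in whole liver. Smooth muscle myosin (Myh11) had 0.14, 0.05 and 0.29 FPKM against 0.69, 1.22 and 2.38, no overlap, and a log2 fold change of -1.47 that missed the threshold (adjusted p = 0.134), while without hepatocyte replicate 3 it was -1.61 (adjusted p = 0.0728). Fbln2, named after its values were seen, had 0.64, 0.19 and 0.92 FPKM against 3.32, 4.44 and 3.61 (log2 fold change -2.04, adjusted p = 0.0723), and its call held without hepatocyte replicate 3 but ended without any other library (adjusted p up to 0.293, without whole liver replicate 2). Replicate 3 was the highest hepatocyte library for Mgp, Mfap4, Eln and Myh11, and without it the median was -1.45 and 10 of 18 genes were called lower. Over the 6 fits that leave out 1 library the median ran from -1.46 to -0.99.

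**Figure D3:**
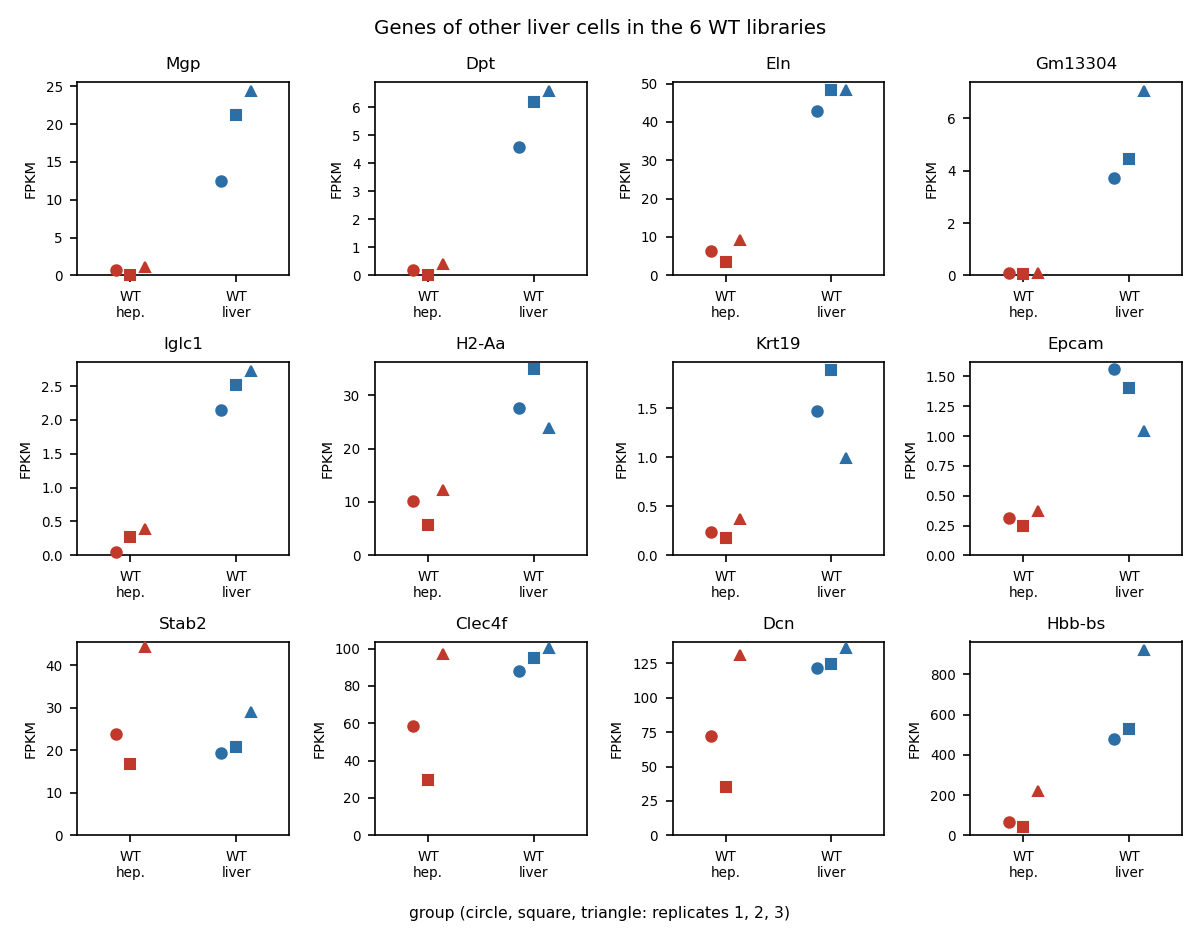
FPKM (y axes, from 0) of 12 genes of other liver cells in the 6 WT libraries, with 1 point per library, hepatocytes in red and whole liver in blue (x axes). Mgp ran from 0.05 to 1.13 FPKM in hepatocytes and from 12.5 to 24.4 in whole liver.

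Extracellular matrix genes were also described as a list, whatever cell makes them. The list of 35 extracellular matrix genes had a median log2 fold change of -0.79, with 33 below 0, 2 called lower (Dpt and Lox) and 14 not overlapping, all of them lower. Vitronectin (Vtn), an adhesive plasma protein made by hepatocytes, was its most abundant gene, and summed FPKM was 2417, 2644 and 3250.2 in hepatocytes against 3203, 3106 and 3362 in whole liver. Fibronectin (Fn1), also secreted into plasma by hepatocytes, stood at 693, 824 and 723 FPKM against 753, 736 and 764, a log2 fold change of -0.01. The fibrillar collagen Col1a1 (ENSMUSG00000001506, chromosome 11, 94936224 to 94953042) had 1.98, 0.84 and 9.4 FPKM in hepatocytes and 18.9, 19.1 and 26.0 in whole liver. Its groups did not overlap, and its log2 fold change of -2.75 missed the threshold (SE 0.71, adjusted p = 0.157). Without hepatocyte replicate 3, at 9.4 FPKM the highest hepatocyte library, it was -3.57 (adjusted p = 0.0289). For Col3a1, its partner in reticular fibres, the values were 50.5, 25.9 and 132 against 164, 159 and 199.7, and the fold change went from -1.62 to -2.24 without that library. Over the list, leaving it out gave a median of -1.16 and 20 of 35 genes called lower, whereas without hepatocyte replicate 2 the median was -0.39. Lox, which crosslinks collagen and elastin and was named after its values were seen, had 0.36, 0.12 and 0.53 FPKM against 1.5, 1.42 and 1.52 and fell by 1.27 (adjusted p = 0.0840). Over the 6 fits its adjusted p ran from 0.0318 to 0.301, the highest without whole liver replicate 2, and the call held without hepatocyte replicate 3 but ended without any other library. 

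Further genes of loose connective tissue among the 74 were named after their values were seen. The small proteoglycans asporin (Aspn) and osteoglycin (Ogn) fell by 1.46 and 1.39, the Wnt antagonist Sfrp1 by 1.72 and Thy1, a surface protein of portal fibroblasts and T cells, by 1.39. Aspn had 0.04, 0 and 0.08 FPKM in hepatocytes against 0.77, 1.15 and 1.07 in whole liver, Ogn 0.28, 0.14 and 0.39 against 1.54, 1.52 and 1.43, Sfrp1 0.04, 0.04 and 0.1 against 1, 1.41 and 1.69 and Thy1 0.23, 0.09 and 0.25 against 0.91, 1.6 and 1.47, all without overlap. Limma gave adjusted p-values of 0.0345, 0.0440, 0.0361 and 0.0723. The calls of Aspn and Sfrp1 ended without hepatocyte replicates 1 or 2 or whole liver replicate 2, with an adjusted p of up to 0.177 and 0.180, both without hepatocyte replicate 1. The call of Ogn held without hepatocyte replicate 3 alone (up to 0.237 without whole liver replicate 2), and that of Thy1 without hepatocyte replicate 3 or whole liver replicate 1 (up to 0.269 without whole liver replicate 2).

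A few lymphoid chemokines stood at or near 0 in the hepatocyte libraries. Ccl19 and Ccl21 guide T cells and dendritic cells, are made by stroma of lymphoid tissue, and bind the same receptor. Ccl21a (ENSMUSG00000094686, chromosome 4, 42772860 to 42773993) stood at 0, 0 and 0.09 FPKM in hepatocytes and 1.41, 4.3 and 7.56 in whole liver (log2 fold change -2.99, adjusted p = 0.0891). The mouse genome holds several near-identical copies of this gene, among which reads cannot be shared out with certainty. A second Ccl21a identifier on an unplaced scaffold and Gm13304, a copy on chromosome 4, were also called, with log2 fold changes of -2.10 and -3.22. The call of the second identifier (adjusted p = 0.0297) ended without hepatocyte replicates 1 (0.177) or 2 or whole liver replicate 2. Gm13304 had 0.08, 0.06 and 0.1 FPKM against 3.72, 4.46 and 7.06 (adjusted p = 0.0279). Ccl19 (ENSMUSG00000071005, chromosome 4, 42754525 to 42756577) was listed at 0 in all 3 hepatocyte libraries and at 1.06, 1.53 and 0.77 FPKM in whole liver (adjusted p = 0.0456). It was named after its values were seen, as was lymphotoxin beta (Ltb), a cytokine that organizes lymphoid stroma, with 0.43, 0.22 and 0.41 FPKM against 1.23, 1.22 and 1.82 and a log2 fold change of -1.17 (adjusted p = 0.0835). Over the 6 fits that leave out 1 library the adjusted p ran from 0.0446 to 0.320 for Ccl21a, 0.0227 to 0.177 for Gm13304, 0.0349 to 0.205 for Ccl19 and 0.0459 to 0.273 for Ltb. The highest came without whole liver replicate 2 for Ccl21a and Ltb and without hepatocyte replicate 1 for Gm13304 and Ccl19. All 4 calls held without hepatocyte replicate 3. Those of Ccl21a and Gm13304 also held without whole liver replicate 1, and those of Gm13304 and Ccl19 without whole liver replicate 3, while the removal of any other library ended them.

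B cells carry immunoglobulin and the signalling chains of the antigen receptor, and the liver still makes and houses some of them in the first weeks after birth. All 15 tested genes of the B cell list lay below 0, with a median of -0.81, 2 called lower and 9 not overlapping. Relative to whole liver the list stood at 0.442, 0.412 and 0.661 in the hepatocyte replicates, its summed FPKM was 10.5, 8.36 and 23.7 against 41.4, 36.8 and 46.4, and the immunoglobulin heavy chain Ighm was its most abundant gene. The lambda light chain Iglc1 (ENSMUSG00000105906, chromosome 16, 19061618 to 19062071) had 0.05, 0.27 and 0.39 FPKM in hepatocytes and 2.15, 2.52 and 2.73 in whole liver, and fell by 2.03 on the log2 scale (adjusted p = 0.0431). The B cell surface protein CD20 (Ms4a1), named after its values were seen, had 0.24, 0.1 and 0.37 against 0.89, 1.3 and 1.44 and fell by 1.22 (adjusted p = 0.0840). Both were called without hepatocyte replicate 3 but lost the call without any other library, with an adjusted p of up to 0.237 for Iglc1 and 0.301 for Ms4a1, each without whole liver replicate 2. The receptor chain Cd79a stood at 0.89, 0.47 and 1.6 FPKM against 4.06, 3.13 and 4.19, with no overlap, and missed the threshold (log2 fold change -1.59, adjusted p = 0.102, or -1.88 and 0.0318 without hepatocyte replicate 3). Replicate 3 was again the highest hepatocyte library, and without it the list's median was -1.23, with 9 of 15 genes called lower, while the 5 other fits gave medians up to -0.73 (without hepatocyte replicate 2).

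T and NK cell genes had a similar median, which replicate 3 moved less. All 18 tested genes lay below 0 and 14 did not overlap, with a median of -0.70, or -0.77 without hepatocyte replicate 3 and -0.59 without hepatocyte replicate 2. Limma called 0 of them, 15 were lower at an unadjusted p under 0.05, and 5 were called lower without replicate 3. The list stood at 0.646, 0.559 and 0.707 relative to whole liver, its summed FPKM was 9.49, 6.38 and 12.6 against 23.0, 32.1 and 19.1, and the granule protease Gzma was the most abundant gene. Gzma had 2.02, 1 and 2.81 FPKM in hepatocytes and 4.57, 7.89 and 4.36 in whole liver, a log2 fold change of -1.35 (adjusted p = 0.158, or -1.60 and 0.0618 without replicate 3). For Cd3e, a chain of the T cell receptor complex, the adjusted p passed at 0.0840, but the log2 fold change of -0.61 fell short of 1.

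Dendritic cells and other antigen presenting cells show peptides to helper T cells on class II molecules. Over the 14 genes of the dendritic and antigen presenting list the median was -0.37 (-0.55 without hepatocyte replicate 3), with 12 below 0, 9 not overlapping and 3 called lower, or 6 without that library. Without hepatocyte replicate 2 the median was -0.23. The list stood at 0.776, 0.583 and 0.848 relative to whole liver. The invariant chain Cd74 was its most abundant gene, and its summed FPKM was 45.9, 25.1 and 57.1 against 137, 171 and 106. The 3 calls were the class II chains H2-Aa (ENSMUSG00000036594, chromosome 17, 34282744 to 34287823) and H2-Eb1 and the peptide loading factor H2-DMa. H2-Aa stood at 10.2, 5.75 and 12.3 FPKM in hepatocytes against 27.6, 34.8 and 23.8 in whole liver, and fell by 1.61 (SE 0.29, adjusted p = 0.0943, 0.0428 to 0.323 over the 6 fits, the highest without whole liver replicate 2). H2-Eb1 and H2-DMa, named after their values were seen, had 6.09, 3.29 and 6.53 against 19.3, 22.7 and 13.01 and 1.68, 1.17 and 2.35 against 5.97, 5.54 and 4.65. H2-Eb1 fell by 1.71 (adjusted p = 0.0922) and H2-DMa by 1.43 (adjusted p = 0.0840), with an adjusted p of up to 0.320 and 0.301 in those fits, also without whole liver replicate 2. All 3 calls held without hepatocyte replicate 3 and ended without any other library. Cd74 itself missed narrowly, at 18.1, 9.65 and 22.0 FPKM against 56.8, 74.6 and 43.4 (log2 fold change -1.82, adjusted p = 0.102), and was called lower without hepatocyte replicate 3 (-2.06, adjusted p = 0.0449). Flt3, the receptor that drives dendritic cell growth, and Siglech, of plasmacytoid cells, stood at -0.19 and 0.10 on the log2 scale, and limma called neither.

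Transcripts of bile duct epithelium had similarly low levels in the 3 hepatocyte libraries. Cholangiocytes line the bile ducts of the portal tract. Of 18 genes listed, 15 were tested, 14 lay below 0 and 12 did not overlap, with a median log2 fold change of -0.79. Relative to whole liver the list stood at 0.584, 0.565 and 0.633, so replicate 3 was close to the other hepatocyte libraries here, and without it the median was -0.82 (-0.82 to -0.69 over all 6 fits that leave out 1 library). Summed FPKM was 46.1, 42.0 and 59.6 against 93.2, 97.7 and 77.8, carried by osteopontin (Spp1). Keratin 19 (Krt19, ENSMUSG00000020911, chromosome 11, 100140810 to 100148665), a filament of duct cells, had 0.24, 0.18 and 0.37 FPKM in hepatocytes and 1.47, 1.89 and 0.99 in whole liver. It fell by 1.33 (SE 0.20, adjusted p = 0.0840). The adhesion molecule Epcam (ENSMUSG00000045394, chromosome 17, 87635979 to 87651129) had 0.31, 0.25 and 0.37 FPKM against 1.56, 1.4 and 1.04 and fell by 1.17 (SE 0.14, adjusted p = 0.0591). Neither gene's groups overlapped, yet without whole liver replicate 2 the adjusted p was 0.270 and 0.261, and each call held without hepatocyte replicate 3 or whole liver replicate 3 and ended without any other library. Spp1 was called beside them without hepatocyte replicate 3. Spp1 had 18.3, 13.5 and 28.7 FPKM against 54.9, 57.1 and 42.5, without overlap (log2 fold change -1.39, adjusted p = 0.116). The duct transcription factor Sox9 was at -0.44 (adjusted p = 0.158).

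For genes of sinusoidal cells, hepatocyte replicate 3 often lay at or above whole liver. Sinusoidal endothelial cells clear waste from the blood through scavenger receptors and lie directly against hepatocytes. Their 23 tested genes had a median of -0.01, with 12 below 0, 0 called by limma, 0 at an unadjusted p under 0.05 and 0 without overlap. The scavenger receptor Stab2 (ENSMUSG00000035459, chromosome 10, 86841198 to 87008025) stood at 23.7, 16.9 and 44.2 FPKM in hepatocytes and 19.3, 20.8 and 28.9 in whole liver (log2 fold change 0.20, adjusted p = 0.771). Here replicate 3 was above every whole liver library while replicate 2 was below all of them. The VEGF receptor Kdr had 12.6, 6.22 and 16.6 against 6.93, 8.64 and 9.58. Summed FPKM of the list was 304, 207 and 577 in hepatocytes and 302, 353 and 411 in whole liver, and Egfl7 was its most abundant gene. Without replicate 3 the median was -0.47 and 1 gene, Stab1, was called lower. The median was 0.31 without hepatocyte replicate 2 and 0.10 with median-ratio size factors, so its direction was not fixed.

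Kupffer cell and macrophage genes had 22 of 22 below 0 and a median of -0.65. Limma called 0, 0 reached an unadjusted p under 0.05, and 3 of 22 did not overlap, a smaller share than the 20.7% of all genes on the lower side. Without hepatocyte replicate 3 the median was -1.06 and 12 of 22 genes were called lower, while without hepatocyte replicate 2 it was -0.24. The list's summed FPKM was 479, 259 and 869 in hepatocytes against 704, 779.7 and 776 in whole liver. Its most abundant gene was Clec4f, a galactose-binding lectin of Kupffer cells (ENSMUSG00000014542, chromosome 6, 83644542 to 83656187), at 58.5, 29.7 and 97.1 FPKM against 88.1, 94.9 and 100.3. Replicate 3 lay within the whole liver range and the other hepatocyte libraries below it, with a log2 fold change of -0.76 (SE 0.40, adjusted p = 0.349), or -1.17 (adjusted p = 0.0753) without replicate 3. The growth factor receptor Csf1r and the complement receptor Vsig4 went from -0.33 and -0.49 to -0.73 and -0.89, neither past the test in either fit.

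Stellate cells store vitamin A and make matrix. Of 22 genes, 20 lay below 0, 8 did not overlap and 0 were called by limma, against 7 lower at an unadjusted p under 0.05, and the median was -0.75. Decorin (Dcn), a collagen-binding proteoglycan, was the most abundant, at 72.4, 35.1 and 131 FPKM in hepatocytes and 121, 125 and 136 in whole liver (-0.87, adjusted p = 0.340, or -1.33 and 0.0687 without hepatocyte replicate 3), and the list's summed FPKM was 329, 218 and 621 against 582, 589 and 628. Reelin (Reln) had 51.4, 47.6 and 85.0 FPKM against 91.8, 87.7 and 78.8. Smooth muscle actin (Acta2), a filament of activated stellate cells and of vessel walls, did not overlap at 0.75, 0.36 and 2.97 FPKM against 8.56, 11.1 and 18.4, and with a log2 fold change of -3.02 just missed the threshold (adjusted p = 0.101). Without hepatocyte replicate 3 the median of the list was -1.19, 13 of 22 genes were called lower, and Acta2 was at -3.60 (adjusted p = 0.0315). Without hepatocyte replicate 2 the median was -0.38.

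Neutrophil and monocyte genes had a median of -0.60, with 19 of 22 below 0 and 10 not overlapping. Limma called 0 of them, and 11 were lower at an unadjusted p under 0.05. Lysozyme (Lyz2) was the most abundant, and summed FPKM was 66.0, 45.4 and 143 in hepatocytes and 146, 121 and 159.6 in whole liver. S100a8, a calcium-binding protein of neutrophils, stood at 3.89, 3.2 and 12.6 FPKM against 23.3, 14.3 and 20.5 (log2 fold change -1.71, adjusted p = 0.179). Its partner S100a9 overlapped by a little, at 6.32, 4.9 and 21.5 against 30.0, 19.3 and 30.9. Without replicate 3 the median was -0.85, 8 genes were called lower, S100a8 was at -2.27 (adjusted p = 0.0315) and S100a9 at -2.14 (adjusted p = 0.0318), while without hepatocyte replicate 2 the median was -0.52. The fractalkine receptor Cx3cr1, a monocyte gene named after its values were seen, was called with all 6 libraries, at 0.08, 0.03 and 0.1 FPKM against 0.73, 0.7 and 0.55 (log2 fold change -1.02, adjusted p = 0.0427). Its call held without hepatocyte replicate 3 or whole liver replicate 3 and ended without any other library, with an adjusted p of up to 0.197 without whole liver replicate 2.

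The liver is a blood-forming organ before birth and holds circulating red cells, whose messages are dominated by globins. The 4 globin genes, set apart from the erythroid list after their values were seen, had a median log2 fold change of -2.89, while the other 17 tested had -0.07 (the 21 together -0.19, with 16 below 0). Hbb-bs (ENSMUSG00000052305, chromosome 7, 103826534 to 103828096) stood at 65.6, 39.3 and 222 FPKM in hepatocytes and 480.3, 528 and 919.9 in whole liver. The groups did not overlap, but hepatocyte replicate 3 held several times the amount of the other hepatocyte libraries, and the log2 fold change of -2.88 missed the threshold (SE 0.65, adjusted p = 0.132). Without that library it was -3.59 (adjusted p = 0.0315), and all 4 globins were called. Hbb-bs and Hbb-bt, like the copies of Hba, are close in sequence and may exchange reads. Alas2, the haem synthesis enzyme of erythroid cells, had 16.0, 14.1 and 13.1 FPKM against 20.5, 20.5 and 21.7 and passed the adjusted p (0.0862) with a log2 fold change of -0.53, short of 1. Klf1, a transcription factor of red cell precursors, had -0.29. Summed FPKM of the whole erythroid list was 156, 117 and 596 in hepatocytes against 1119, 1243 and 2190.1 in whole liver. Of its 21 genes limma called 0, with 7 lower at an unadjusted p under 0.05, and 5 were called lower without replicate 3. Without hepatocyte replicates 2 or 3 or whole liver replicate 3 the list's median was -0.05, -0.38 and -0.06. The 10 tested of the megakaryocyte and platelet list had a median of 0.03, 3 of them below 0 and 0 called by limma or under an unadjusted p of 0.05. Their summed FPKM was 10.9, 9.85 and 36.7 against 17.9, 14.3 and 20.6, with Pf4 the most abundant, and the median had no fixed sign, at -0.30 without hepatocyte replicate 3, -0.09 without whole liver replicate 2 and up to 0.27 without hepatocyte replicate 2.

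The 7 genes called higher in hepatocytes are a mixed group. Lars2 (ENSMUSG00000035202, chromosome 9, 123366927 to 123462666) encodes the mitochondrial leucyl-tRNA synthetase. It stood at 223, 153 and 146 FPKM in hepatocytes and 16.8, 17.0 and 16.6 in whole liver, so that every hepatocyte library lay far above every whole liver library. The log2 fold change was 3.31 (SE 0.16, adjusted p = 0.00876), with 0.000728 to 0.0597 over the 6 fits that leave out 1 library. Rn7sk, a small nuclear RNA that holds back transcription elongation (ENSMUSG00000065037, chromosome 9, 78175303 to 78175633), had 25.6, 10.9 and 7.3 FPKM against 0.65, 1.49 and 2.24 (log2 fold change 2.84, SE 0.52, adjusted p = 0.0998). Mia2 (ENSMUSG00000035349), a gene of cargo export from the endoplasmic reticulum, had 21.5, 17.9 and 11.3 FPKM against 5.3, 4.68 and 4.51 and rose by 1.66 (adjusted p = 0.0723). Interleukin 1 beta (Il1b, ENSMUSG00000027398, chromosome 2, 129364570 to 129371139), an early inflammatory cytokine, had 4.43, 3.83 and 4.78 FPKM against 1.07, 0.93 and 1.7 and rose by 1.50 (SE 0.19, adjusted p = 0.0623). Prok1 (ENSMUSG00000070368, chromosome 3, 107232797 to 107239707), a secreted peptide that acts on endothelial cells of endocrine organs, had 18.8, 15.5 and 11.4 FPKM against 4.53, 6.01 and 6.45 and rose by 1.34 (adjusted p = 0.0840). Gm10382 and the microRNA gene Mir3968 were the remaining calls, at 1.67 and 2.19, and Mir3968 was listed at 0 in 2 whole liver libraries. Except for Lars2, these calls held without hepatocyte replicate 3, and that of Il1b also without whole liver replicate 3, but each ended without any other library. The highest adjusted p came without whole liver replicate 2, at 0.261 for Il1b and between 0.293 and 0.329 for the other 5.

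A few structural and nuclear RNAs, most of which carry no regular poly(A) tail, had higher values beside Lars2 and Rn7sk. They were named after their values were seen and do not stand for such RNAs in general, as median log2 fold changes were 0.05 over 85 small nuclear RNA genes, 0.00 over 145 small nucleolar RNA genes, 0.10 over 19 ribosomal RNA genes and 0.06 over the 31 genes of the mixed class that holds Rn7sk and Rn7s1. The signal recognition particle RNA Rn7s1 had 122, 34.1 and 9.23 FPKM in hepatocytes and 4.67, 4.07 and 4.28 in whole liver, and Rn7s2 has identical values in all 12 libraries, so that the reads of the pair cannot be divided. The ribosomal RNA gene Rn18s-rs5 had 1443, 701 and 486 FPKM against 235, 266 and 299, and Malat1, a nuclear long RNA, 108, 87.3 and 39.3 against 27.7, 24.7 and 29.6. None of the 3 groups of values overlapped. Their log2 fold changes of 2.84, 1.57 and 1.38 missed the threshold, with limma adjusted p-values of 0.185, 0.148 and 0.160, while without hepatocyte replicate 3, which had the lowest value of the hepatocyte libraries for each, they were 0.0384, 0.0459 and 0.0251. In the Cdk1 Liv-/- libraries, whole liver replicate 2 had a Lars2 of 193 FPKM, where the other whole liver libraries of both genotypes ran from 15.7 to 17.2. The same library held 6 structural RNAs (Rn18s-rs5, Yam1, Rn7s1, Rn7s2, Rn7sk and Rpph1) at a summed 6287 FPKM, against 323 and 395 in the other Cdk1 Liv-/- whole livers and 2344, 1052 and 682 in WT hepatocyte replicates 1, 2 and 3. In Cdk1 Liv-/- hepatocytes the sum of these RNAs was 1251, 2435 and 3394 FPKM, with Lars2 at 170, 206 and 263. In the WT whole livers the sum was 330, 363 and 410 FPKM. The part of library preparation in the level of Lars2 was not tested.

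**Figure D4:**
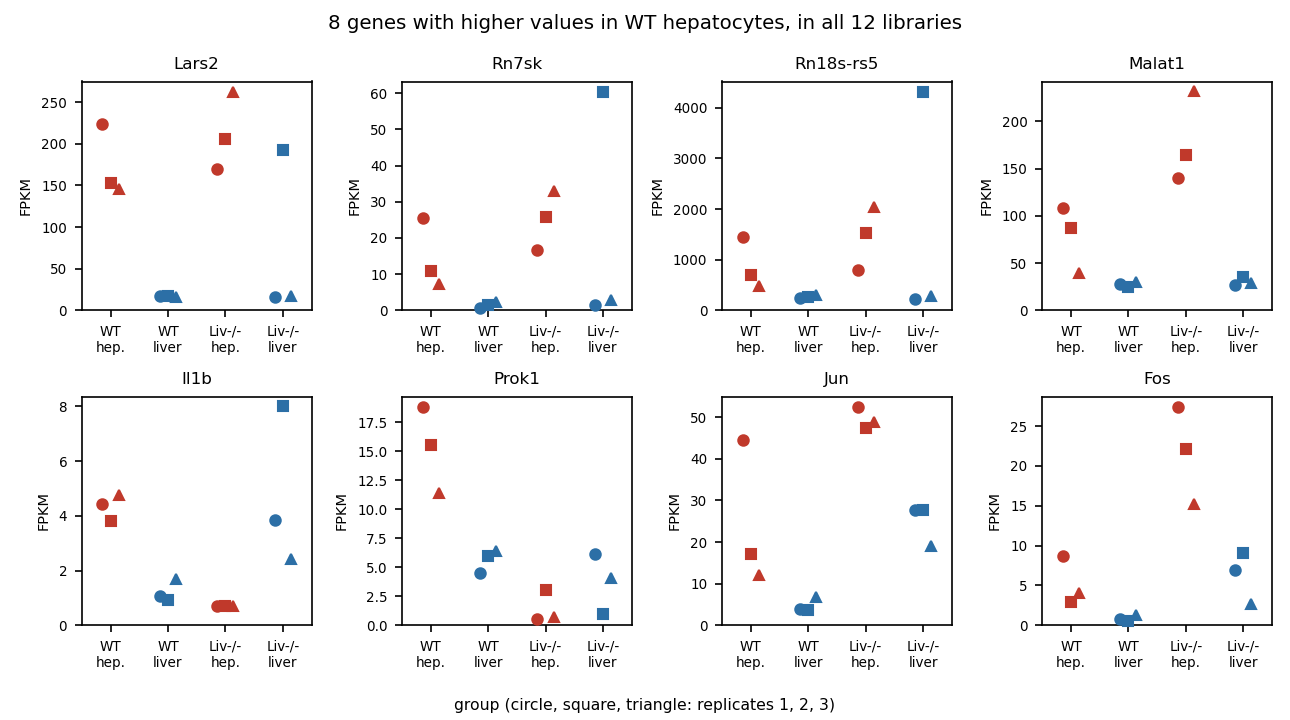
FPKM (y axes, from 0) of 8 genes with higher values in WT hepatocytes than in WT whole liver, in all 12 libraries, with 1 point per library, grouped by preparation and genotype (x axes). Lars2 ran from 146 to 223 FPKM in WT hepatocytes and from 16.6 to 17.0 in WT whole liver, and reached 193 in Cdk1 Liv-/- whole liver replicate 2.

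Immediate early genes are switched on within minutes of a stimulus, tissue handling included, without new protein synthesis. The list of 34 tested genes had a median log2 fold change of 0.05. In 7 of the 34 every hepatocyte library was higher, beside 5.28% of all genes, and in 7 every one was lower, a share like the 20.7% of all genes. The AP-1 subunit Jun (ENSMUSG00000052684, chromosome 4, 95049034 to 95052222) stood at 44.5, 17.2 and 12.1 FPKM in hepatocytes and 3.9, 3.8 and 6.7 in whole liver, with a log2 fold change of 2.07 (SE 0.49, adjusted p = 0.141). Its partner Fos (ENSMUSG00000021250, chromosome 12, 85473890 to 85477273) had 8.74, 2.98 and 4.06 FPKM against 0.73, 0.58 and 1.32 (log2 fold change 1.97, adjusted p = 0.120). Neither overlapped and neither passed the threshold. Zfp36, an mRNA-decay protein, the most abundant gene of the list and named after its values were seen, had 99.4, 58.0 and 43.8 FPKM against 19.9, 23.7 and 31.4 (1.35, adjusted p = 0.142), and the growth brake Btg2 35.9, 18.0 and 23.7 against 10.97, 11.5 and 17.0 (0.92, adjusted p = 0.188). Replicate 1 was the highest hepatocyte library for all 4. Egr1 overlapped, at 65.7, 29.9 and 18.4 FPKM against 9.11, 12.6 and 22.8, and Atf3 (-0.30), Myc (-0.47) and the matrix-linked Ctgf (-0.94) lay below 0. Of the 34 genes limma called 0, with 8 higher and 7 lower at an unadjusted p under 0.05. Without hepatocyte replicate 3 it called 5 higher (Fos, Jun, Junb, Zfp36 and Ier2) and 1 lower (Ctgf), and the median was -0.06. It also fell below 0 without whole liver replicate 1 (-0.01) and was highest without whole liver replicate 3 (0.22).

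Promoters of 3 immediate early genes, none of which passed the test with all 6 libraries, are shown because each holds an element known from the regulation of such genes. They were picked for that, and the promoters of Jun, Junb and Jund, also without overlap on the higher side, have neither motif in this window. Dusp1, Dusp5, Maff, Egr2 and Atf3 hold a motif too, but their groups overlapped. Their log2 fold changes were 1.05, 0.04, 0.02, -0.06 and -0.30. The sequences are those of RefSeq, build GRCm38.p6, from 250 bases before to 50 after the transcription start, each read 5′ to 3′ on the strand of the gene. Fos lies at chr12:85473640-85473939 on the plus strand, Zfp36 at chr7:28379179-28379478 on the minus strand and Btg2 at chr1:134079106-134079405 on the minus strand. Capitals mark the cyclic AMP response core TGACGT, read on both strands, and in Zfp36 the CArG box, the element of serum response factor, also searched on both strands. TGACGT is present in 2468 of 32851 mouse promoters of this length (7.51%) and in 7 of the 26 immediate early genes that have one, the CArG box in 535 (1.63%) and in 3 of the 26. A match of letters is a description and shows no binding.
Fos: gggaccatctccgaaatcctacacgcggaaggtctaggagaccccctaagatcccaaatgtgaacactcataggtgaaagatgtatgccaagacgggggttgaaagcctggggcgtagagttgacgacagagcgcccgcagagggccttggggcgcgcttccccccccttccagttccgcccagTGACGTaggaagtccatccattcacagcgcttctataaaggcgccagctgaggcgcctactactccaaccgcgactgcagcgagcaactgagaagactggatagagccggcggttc
Zfp36: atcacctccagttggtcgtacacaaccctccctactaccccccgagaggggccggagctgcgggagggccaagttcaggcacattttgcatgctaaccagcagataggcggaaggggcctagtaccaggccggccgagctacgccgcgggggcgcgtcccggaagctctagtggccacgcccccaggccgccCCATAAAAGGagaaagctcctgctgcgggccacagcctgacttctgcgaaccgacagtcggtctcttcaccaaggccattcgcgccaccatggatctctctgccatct
Btg2: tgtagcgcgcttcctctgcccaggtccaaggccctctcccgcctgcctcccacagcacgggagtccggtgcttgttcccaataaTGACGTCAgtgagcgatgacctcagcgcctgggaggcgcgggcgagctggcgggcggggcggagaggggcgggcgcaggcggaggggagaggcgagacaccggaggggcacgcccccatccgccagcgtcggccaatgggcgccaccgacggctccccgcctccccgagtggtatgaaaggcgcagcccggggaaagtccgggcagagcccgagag

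Other stress lists had medians between -0.19 and -0.04, beside -0.10 for all genes. The 22 heat shock genes had a median of -0.19, with 21 below 0 and 7 not overlapping, all lower. The small heat shock proteins Cryab (1.39, 0.89 and 2.21 FPKM against 3.35, 3.66 and 3.11) and Hspb1 (0.15, 0.12 and 0.25 against 0.62, 0.64 and 0.83) were the lowest, at -1.01 and -0.83. Hspb1 passed the adjusted p (0.0771) and fell short of a log2 fold change of 1, Cryab was called lower without hepatocyte replicate 3 (adjusted p = 0.0381), and the inducible Hspa1a, at 0.19, 0.19 and 0.55 FPKM against 0.26, 0.43 and 0.48, overlapped. Medians were -0.16 for 20 genes of the oxidant response and metallothioneins, -0.06 for 24 of the unfolded protein and integrated stress response, and -0.04 for 20 of hypoxia and glycolysis. With median-ratio size factors the last pair turned to 0.06 and 0.08, and heat shock was at -0.10. Over the 6 fits that leave out 1 library the heat shock median ran from -0.25 to -0.13, that of the oxidant list from -0.19 to -0.10, that of the unfolded protein list from -0.12 to 0.01 and that of the hypoxia list from -0.22 to 0.04, the hypoxia value being lowest without hepatocyte replicate 3 and highest without hepatocyte replicate 2. Limma called 0 genes on each of these 4 lists, and at an unadjusted p under 0.05 the heat shock list had 7 lower, the oxidant list 2 lower, the unfolded protein list 2 higher and 4 lower, and the hypoxia list 2 lower (Pfkfb4 and Car9). Another hypoxia gene, Adm, was called lower without hepatocyte replicate 3. The metallothionein Mt1 varied more within groups than between them, at 98.6, 55.1 and 289.9 FPKM in hepatocytes and 123, 78.8 and 291 in whole liver. Gdf15, a stress cytokine, did not overlap at 4.07, 2.14 and 2.64 against 1.21, 1.29 and 2 (log2 fold change 0.77, adjusted p = 0.204).

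Inflammatory genes went both ways. Over 28 genes of NF-kappaB signalling, cytokines and chemokines the median was -0.27, with 1 called higher (Il1b), 0 called lower by limma, and 4 higher and 10 lower at an unadjusted p under 0.05. Il1a, of the same family as Il1b, was also without overlap, at 6.77, 4.98 and 7 FPKM in hepatocytes and 3.19, 4.17 and 4.31 in whole liver, with a log2 fold change of 0.62 (adjusted p = 0.168). The lowest genes of the list were the chemokines Ccl24 (3.73, 2.13 and 6.45 against 10.4, 11.6 and 8.8, -1.33) and Ccl5 (2.78, 2.03 and 4.46 against 5.1, 6.16 and 5.82, -0.84), both called lower without hepatocyte replicate 3. Cxcl12, the most abundant gene of the list, had 153, 134 and 127 FPKM against 177, 194 and 159.9 (-0.35, adjusted p = 0.172), while Ccl2 (-0.55) and Cxcl1 (0.08) overlapped. Acute phase genes had a median of -0.13 over 23, which ran from -0.13 to -0.07 over the 6 fits that leave out 1 library. With median-ratio size factors it was -0.003. Limma called 0 of these genes, 1 was higher and 5 lower at an unadjusted p under 0.05, and haptoglobin (Hp) was the most abundant. The interleukin 6 receptor Il6ra was the highest, at 20.3, 18.5 and 18 FPKM against 11.4, 11.4 and 15.4 (0.56, adjusted p = 0.136). Of genes known to be induced by interferon, 3 are given here, named after their values were seen and for being called lower, which says nothing of such genes in general. Isg15, a ubiquitin-like modifier, fell by 1.15 (4.68, 4.78 and 7.31 FPKM against 13.3, 13.1 and 11.9, adjusted p = 0.0840), and the GTPases Tgtp2 and Irgm2 by 1.57 and 1.03 (adjusted p = 0.0438 and 0.0840). Without whole liver replicate 2 their adjusted p was 0.301, 0.237 and 0.301. The call of Isg15 held without hepatocyte replicate 3, that of Tgtp2 without hepatocyte replicate 3 or whole liver replicate 3, and each ended without any other library. Irgm2 was called in none of the 6 fits, as without hepatocyte replicate 3 its log2 fold change was -0.88.

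Hepatocytes differ along the lobule, with urea and glucose synthesis near the portal tract and glutamine synthesis and drug oxidation around the central vein. The 27 pericentral genes lay below whole liver as a list, with a median of -0.31 and 25 below 0, while the 22 periportal genes had 0.05 and 9 below 0. No gene of either list was called (0 by limma), with 5 pericentral genes lower and 5 periportal genes higher at an unadjusted p under 0.05. The pericentral value moved with single libraries of both preparations. Pericentral genes stood at 0.965, 0.902 and 0.604 relative to whole liver in hepatocyte replicates 1, 2 and 3 and at 1.07, 1.15 and 0.841 in the whole liver libraries, and the median was -0.09 without hepatocyte replicate 3, -0.18 without whole liver replicate 2 and -0.52 without whole liver replicate 3. Glutamine synthetase (Glul, ENSMUSG00000026473, chromosome 1, 153899944 to 153909723) had 189.8, 134 and 98.0 FPKM in hepatocytes and 208, 264 and 152 in whole liver (log2 fold change -0.58, adjusted p = 0.333). Cyp2e1, the most abundant gene of the list, had 2266, 2077 and 1292 against 2241, 2649 and 1774. Both overlapped. Among the periportal genes Pck1, the entry enzyme of glucose synthesis, did not overlap, at 1096, 1199 and 1143 FPKM against 695, 714 and 1070.2 (0.50, adjusted p = 0.218), and Igfbp2 was the most abundant. The sign of the periportal median changed without hepatocyte replicate 3 (-0.04) or whole liver replicate 2 (-0.03).

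Regulators and products of the hepatocyte were close to even. The 28 hepatocyte transcription factors had a median of -0.02 and the 33 cytochrome P450 genes, with the reductase Por, one of -0.11. With median-ratio size factors these were 0.10 and 0.00. Over the 6 fits that leave out 1 library they ran from -0.08 to 0.004 and from -0.13 to -0.03. Hnf4a, which sustains hepatocyte identity, stood at 111, 101 and 102 FPKM in hepatocytes and 92.6, 89.8 and 99.2 in whole liver, without overlap and with a log2 fold change of 0.15 (adjusted p = 0.257), while Foxa2 had 14.2, 17.1 and 10.6 against 22.7, 20.4 and 20.3 (-0.60, adjusted p = 0.170). Coagulation genes had a median of -0.03 over 31 and complement genes one of -0.07 over 34, which became 0.10 and 0.02 with size factors. Limma called 0 on each of these 4 lists. At an unadjusted p under 0.05 there were 2 higher and 6 lower transcription factors, 1 and 4 P450 genes, 1 and 3 coagulation genes, and 2 and 4 complement genes. Coagulation and complement genes are not all made by hepatocytes. Von Willebrand factor (Vwf), from endothelium, had 0.74, 0.98 and 3.44 FPKM against 4.43, 4.1 and 3.85 (-1.26, adjusted p = 0.216), or -1.77 (adjusted p = 0.0259) without hepatocyte replicate 3, while factor VIII (F8), also from endothelium, overlapped (log2 fold change 0.47, adjusted p = 0.337). Prothrombin (F2) from hepatocytes had 1084, 1133 and 1129 against 1106, 1075 and 1117 (0.02). C1qa, a macrophage product, was at -0.74, or -1.17 (adjusted p = 0.0637) without replicate 3, and C3, the most abundant complement gene, at 0.10. Without replicate 3, Vwf and 4 complement genes (Colec11, C1qa, C1qb and C1qc) were called lower. The most abundant genes of the other 3 lists were Srebf1, Cyp2e1 and Serpinc1.

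Signals between the cell types were examined as ligands of the liver niche and their receptors. Wnt ligands and R-spondins from central vein endothelium sustain the pericentral programme, BMPs from sinusoidal endothelium regulate iron, and HGF from stellate cells drives hepatocyte growth. Over 31 ligands the median was -0.25 (-0.05 without hepatocyte replicate 2 and -0.34 without hepatocyte replicate 3), with 11 not overlapping on the lower and 3 on the higher side, 0 called by limma, and 1 higher and 11 lower at an unadjusted p under 0.05. Rspo3 had 2.05, 1.05 and 3.36 FPKM in hepatocytes and 3.7, 4.24 and 3.69 in whole liver (-0.82, adjusted p = 0.257), and Wnt2 1.84, 1.28 and 1.46 against 2.53, 2.99 and 1.36 (-0.42, adjusted p = 0.408). Without hepatocyte replicate 3, Tgfb3, Ctgf and Rspo3 were called lower. Tgfb3 (ENSMUSG00000021253, chromosome 12, 86056745 to 86079041) passed the adjusted p (0.0864) with a log2 fold change of -0.98, just short of 1. Hgf overlapped widely, at 3.91, 0.88 and 2.5 FPKM against 2.26, 2.32 and 1.82, and so did Bmp6. On the higher side, without passing the test, were the growth factor Igf2 (396, 521 and 669 FPKM against 389.7, 265 and 352, 0.64, adjusted p = 0.223) and the activin subunit Inhba (4.86, 1.04 and 0.52 against 0.24, 0.33 and 0.41, 1.30, adjusted p = 0.299), whose value was set by replicate 1. Over 36 receptors the median was 0.05, 0 were called by limma, and 3 were higher and 2 lower at an unadjusted p under 0.05. The HGF receptor Met had 17.8, 12.6 and 9.78 FPKM against 10.3, 10.3 and 10.1 (0.33), the co-receptor Klb 10.9, 8.08 and 7.47 against 5.58, 5.35 and 5.95 (0.59, adjusted p = 0.153), and Notch3, a receptor of pericytes and smooth muscle, 0.25, 0.12 and 0.63 against 1.16, 1.17 and 1.76 (-1.19, adjusted p = 0.127, or 0.0368 without hepatocyte replicate 3). Tmprss6, a protease of iron sensing, was the most abundant of the receptor list.

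Lists of growth and metabolism had medians between -0.20 and 0.06. At this age hepatocytes still divide, and the 34 S phase genes had a median of -0.07 (0.04 with size factors), the 39 of G2 and M phase 0.06 (0.00 without hepatocyte replicate 3). Limma called 0 of either, with 3 S phase genes lower and 0 G2 and M phase genes at an unadjusted p under 0.05, and Pcna and Cks2 were the most abundant. Cdk1 (ENSMUSG00000019942, chromosome 10, 69335146 to 69352938) stood at 27.9, 20.4 and 28.2 FPKM in hepatocytes and 25.3, 22.7 and 21.5 in whole liver, which overlap (log2 fold change 0.12, adjusted p = 0.642). Mki67 had 9.2, 5.49 and 6.99 against 6.16, 5.61 and 5.2. Ribosomal protein genes of the cytosol all lay below 0, 42 of 42, with a median of -0.20 and 24 not overlapping, and with size factors, which raise all genes, of -0.08, or -0.28 without hepatocyte replicate 3. Rplp0 had 254, 268 and 299.8 FPKM against 318, 319.7 and 333 (-0.24, adjusted p = 0.183), and Rplp1 was the most abundant. Of this list limma called 0, while 19 were lower at an unadjusted p under 0.05. Ribosomal protein transcripts are short, and the part of transcript length in their values was not tested. Over 5 equal classes of protein-coding genes with a mean of at least 1 FPKM, 2197 in each, the median log2 fold change went from -0.14 in the shortest to 0.00 in the longest. The 13 mitochondrially encoded genes had 0.01, with mt-Co1 the most abundant, and the 18 clock genes 0.06, with Bhlhe40 the most abundant. Limma called 0 on both, with 1 higher and 1 lower mitochondrial gene and 1 lower clock gene at an unadjusted p under 0.05. The medians of the G2 and M phase, mitochondrial and clock lists changed sign in at least 1 of the 6 fits that leave out a library, and that of the S phase list without hepatocyte replicate 3.

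**Figure D5:**
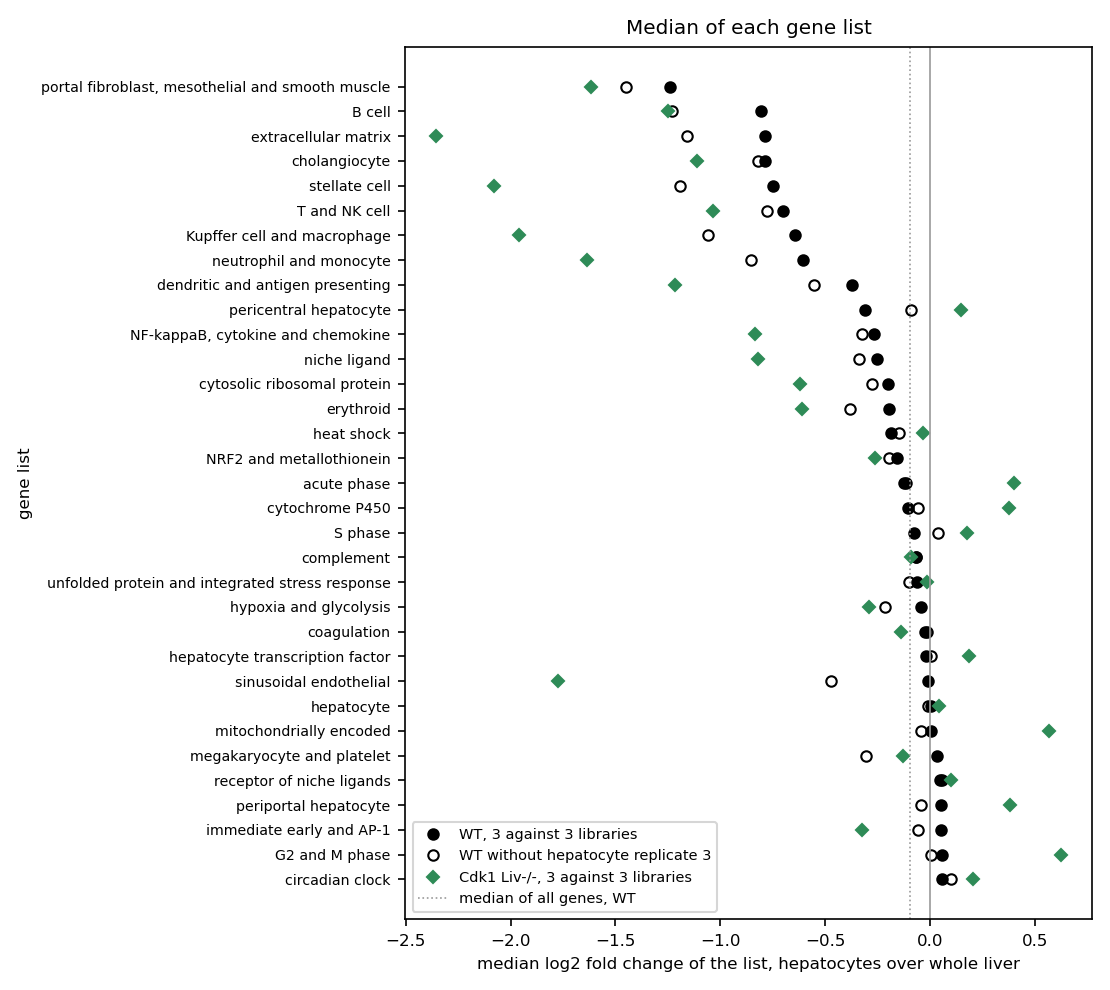
Median log2 fold change, hepatocytes minus whole liver (x axis), of each of the 33 lists (y axis) with all 6 WT libraries, without WT hepatocyte replicate 3, and in the 6 Cdk1 Liv-/- libraries. The portal, B cell, matrix and cholangiocyte lists lie lowest in WT, at -1.24, -0.81, -0.79 and -0.79, and the sinusoidal endothelial list lies at -0.01 in WT and at -1.77 in Cdk1 Liv-/-.

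In the Cdk1 Liv-/- libraries more genes were called between the preparations. Limma called 262 genes higher in hepatocytes than in whole liver (1.51%) and 1644 lower (9.46%), and the median log2 fold change of all genes was -0.19. Of the 74 genes lower in WT, 71 had the same sign and 60 were called lower in Cdk1 Liv-/-, and of the 7 higher, 5 had the same sign and 3 were called higher, namely Lars2, Mia2 and Gm10382. Without Cdk1 Liv-/- whole liver replicate 3, the library whose Xist goes against the methods, limma called 229 higher and 1714 lower. These held 60 of the 74 and 2 of the 7 in the same direction (72 and 5 had the same sign), and the median of all genes was -0.19. The call of Lars2 in Cdk1 Liv-/- ended (adjusted p = 0.235). The whole livers left in that fit had 15.7 and 193 FPKM of Lars2, against 170, 206 and 263 in the hepatocytes. Without Cdk1 Liv-/- whole liver replicate 2, the library with a high Lars2, limma called 210 and 1499, 59 of the 74 and 4 of the 7, among them Lars2 (log2 fold change 3.63, adjusted p = 0.00241) and Rn7sk (3.30, adjusted p = 0.00587). Mgp had 0.58, 0.42 and 0.68 FPKM in Cdk1 Liv-/- hepatocytes and 29.3, 23.7 and 19.9 in whole liver, a log2 fold change of -4.54 (adjusted p = 0.000224), or -4.67 (adjusted p = 0.00356) without replicate 3. Medians of cell type lists and of the matrix list, Cdk1 Liv-/- beside WT, were -1.77 and -0.01 for sinusoidal endothelium (23 of 23 called lower in Cdk1 Liv-/-), -1.96 and -0.65 for Kupffer cells (20 of 22), -2.08 and -0.75 for stellate cells (19 of 22), and -2.35 and -0.79 for matrix genes (31 of 35). For portal cells they were -1.62 and -1.24 (15 of 18), for cholangiocytes -1.11 and -0.79 (7 of 15), and for B cells -1.25 and -0.81 (8 of 15). The hepatocyte, megakaryocyte, erythroid, neutrophil, T and NK cell and dendritic lists had 0.04, -0.13, -0.61, -1.64, -1.04 and -1.22 in Cdk1 Liv-/-. Without Cdk1 Liv-/- whole liver replicate 3 they had 0.03, -0.02, -0.54, -1.62, -1.07 and -1.42. Their WT medians were 0.01, 0.03, -0.19, -0.60, -0.70 and -0.37, or -0.01, -0.30, -0.38, -0.85, -0.77 and -0.55 without WT hepatocyte replicate 3. Leaving out Cdk1 Liv-/- whole liver replicate 3, the Cdk1 Liv-/- medians of the endothelial, Kupffer cell, stellate cell, matrix, portal, cholangiocyte and B cell lists were -1.81, -2.08, -2.12, -2.40, -1.77, -1.003 and -0.99, and leaving out replicate 2 they were -1.63, -1.89, -2.08, -2.13, -1.57, -1.45 and -1.01. Without replicate 3, limma called 23, 20, 18, 31, 15, 5 and 7 genes of these lists lower. On the WT side, leaving out WT hepatocyte replicate 3 gave medians of -0.47, -1.06, -1.19, -1.16, -1.45, -0.82 and -1.23 in the same order, each nearer to the Cdk1 Liv-/- value with all libraries, and for B cells about equal to it.

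Whether a difference between preparations itself differed between genotypes was tested as an interaction in 1 limma fit of all 12 libraries. It passed an adjusted p of 0.1 for 1712 of all 17386 genes tested, the share to hold against the counts for lists. For the genes called on WT values, which also enter the interaction, it passed for 19 of the 74 lower and for 2 of the 7 higher. Among lists it passed for 20 of the 23 endothelial, 13 of 35 matrix, 8 of 22 stellate cell, 6 of 22 Kupffer cell, 4 of 18 portal and 0 of 15 cholangiocyte genes, and for 0 to 7 genes on each of the other lists. Fits of 11 libraries have fewer samples. Without Cdk1 Liv-/- whole liver replicate 3 it passed for 742 of all genes, 14 of the 74 and 1 of the 7, and for 7 endothelial, 6 matrix, 2 stellate cell, 1 Kupffer cell, 2 portal and 0 cholangiocyte genes. Leaving out replicate 2 of that group, it passed for 415, 11 and 2, and for 2 endothelial, 4 matrix, 1 stellate cell, 1 Kupffer cell, 2 portal and 2 cholangiocyte genes. On the other lists it passed for 0 to 6 genes in either fit. Without WT hepatocyte replicate 3, with the highest endothelial levels of the hepatocyte libraries, it passed for 918, 14 and 1, and for 14 endothelial, 13 matrix, 6 stellate cell, 3 Kupffer cell, 3 portal and 0 cholangiocyte genes, with 0 to 7 on the other lists. Kdr, for example, had a log2 fold change of -1.51 in Cdk1 Liv-/- (3.11, 2.7 and 2.63 FPKM in hepatocytes against 8.94, 9.73 and 8.14 in whole liver) and 0.38 in WT, a difference of -1.89 (SE 0.38, adjusted p = 0.0439, or 0.0720 when Cdk1 Liv-/- whole liver replicate 3 was left out, 0.0886 when replicate 2 was and 0.0539 when WT hepatocyte replicate 3 was). Without Cdk1 Liv-/- whole liver replicate 3 its log2 fold change in Cdk1 Liv-/- was -1.57. Il1b turned its sign, from 1.50 in WT to -1.99 in Cdk1 Liv-/-, where hepatocytes had 0.69, 0.69 and 0.72 FPKM and whole liver 3.85, 8 and 2.41 (without replicate 3 of these whole livers -2.34, adjusted p = 0.00979). Its interaction was -3.49 (adjusted p = 0.0103), or -3.85 without that library (adjusted p = 0.00748). Prok1 and Ly6d had opposite signs too, but in Cdk1 Liv-/- both overlapped and limma called neither (adjusted p = 0.253 and 0.177). Without Cdk1 Liv-/- whole liver replicate 3 the interaction of Prok1 did not pass (adjusted p = 0.164) and its log2 fold change in Cdk1 Liv-/- was -0.93 (adjusted p = 0.452), nor did the interaction pass without WT hepatocyte replicate 3 (0.133), while without Cdk1 Liv-/- whole liver replicate 2 it passed (-3.09, adjusted p = 0.0691) and Prok1 was called lower in Cdk1 Liv-/- (log2 fold change -1.75, adjusted p = 0.0926). Ly6d, a surface protein, was lower in WT hepatocytes (0.87, 0.54 and 1.42 FPKM against 3.12, 2.86 and 3.89) but stood at 193, 141 and 208 FPKM in Cdk1 Liv-/- hepatocytes against 86.3, 171 and 127 in whole liver. Named after its values were seen, it was called lower in WT (log2 fold change -1.43, adjusted p = 0.0891), which held without hepatocyte replicate 3 and ended without any other WT library (up to 0.301, without whole liver replicate 2). Its interaction of 1.96 (adjusted p = 0.0406) was 1.98 (adjusted p = 0.0720) without Cdk1 Liv-/- whole liver replicate 3, where its log2 fold change in Cdk1 Liv-/- was 0.55 against 0.53 with all libraries. Lars2 did not pass, with a difference of -0.85 (adjusted p = 0.672). Without the Cdk1 Liv-/- whole liver library with a high Lars2, replicate 2, the difference was 0.33 (adjusted p = 0.553), and without replicate 3 it was -1.40 (adjusted p = 0.467).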

How the data were processed

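The authors aligned reads with STAR and quantified genes with RSEM 1.2.31 on mm10 (submitters' processing notes) and deposited FPKM, with no normalization between libraries. The annotation release is not given. Positions are from GENCODE M21, in which 17299 of the 17386 tested genes were found, and 75 tested genes share their 12 values with another. WT hepatocytes (n = 3) and WT whole liver (n = 3) were compared on log2(FPKM + 0.5) in R 4.3.3, using limma 3.58.1 and its trended eBayes, two-sided, adjusted by Benjamini-Hochberg over all tested genes. The same fit was run on the 6 Cdk1 Liv-/- libraries, and the interaction on all 12. The interaction was planned for named genes, and its counts over lists and all genes were added after seeing the data. Fits that leave out 1 library take the spread of the group of 2 from both groups. The procedure was tested on simulated data. Depth was read as the step between FPKM values of at most 0.5 on genes with 1 transcript of 300 to 900 bp, and 64.0% to 71.5% of values lay within 0.001 FPKM of a step.

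The members and the 33 lists were chosen with earlier results of these data known. Of the gene symbols on the lists, 3 (Ahsp, Fcn3 and Igj) are not in the table, of which Igj is a former symbol of Jchain, which is listed and tested, and 17 did not pass the filter. No gene is on more than 1 cell type list, and 28 are on more than 1 list of any kind. Named genes were drawn from the 10 called genes at each end of the fold change with a mean FPKM of at least 1 and groups that do not overlap, and of each list the defining genes and the 2 highest and 2 lowest members. Others were named after their values were seen. Lists are described by counts and medians, with no set test. In all, 19 alternatives were run, of which 1 was chosen after seeing the data: other pseudocounts, filters, scalings, a replicate block, a fit of all 12 libraries, eBayes without a trend, the two-sample test of the study's methods, no fold change threshold, and each library left out. The Cdk1 Liv-/- contrast and the interaction were also run without Cdk1 Liv-/- whole liver replicate 3 and without replicate 2, and the interaction without WT hepatocyte replicate 3, chosen after seeing the data. Figures were drawn with matplotlib 3.10.9 and pandas 2.3.3 in Python 3.11.15.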

Additional observations from a re-analysis of the deposited data

Results flagged for a closer look

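Of the 41 called genes in the set of named genes, 8 had a difference between hepatocytes and whole liver that differed between the genotypes. This was tested as the interaction over all 12 libraries with limma, which passed for 1712 of all 17386 genes tested. Called genes were picked by WT values that also enter the interaction. The values below are the log2 fold change in Cdk1 Liv-/- minus that in WT. Il1b had -3.49 (adjusted p = 0.0103), being higher in hepatocytes in WT and lower in Cdk1 Liv-/-. For Prok1 it was -2.46 (adjusted p = 0.0987), also with opposite signs. Ly6d had 1.96 (adjusted p = 0.0406), lower in hepatocytes in WT and at 0.53 in Cdk1 Liv-/-. Dpt had -1.39 (adjusted p = 0.0449), lower in hepatocytes in both genotypes. Lox was at -1.17 (adjusted p = 0.0476) and Sfrp1 at -1.01 (adjusted p = 0.0436), both of them lower in hepatocytes in each genotype. Thy1 had -0.92 (adjusted p = 0.0614) and Cx3cr1 -0.68 (adjusted p = 0.0716), again lower in both. Without Cdk1 Liv-/- whole liver replicate 3, where Xist goes against the males of the methods, the test no longer passed for Prok1 (adjusted p = 0.164) and Thy1 (0.102). Without Cdk1 Liv-/- whole liver replicate 2 it no longer passed for Thy1 (0.103) and Cx3cr1 (0.147). Without WT hepatocyte replicate 3 it no longer passed for Prok1 (0.133), Thy1 (0.101) and Cx3cr1 (0.124). Causes of these differences were not tested.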

How the results depend on the processing

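The 2 counts of called genes depend on the processing more than the directions do. With 7 genes higher and 74 lower as reported, a pseudocount of 0.1 gave 12 and 160, a pseudocount of 1 gave 5 and 43, no filter on low values 2 and 39 and a mean FPKM of at least 1 gave 4 and 42. Median-ratio size factors gave 4 and 36, the same sum in every library 3 and 53, that sum without erythroid and mitochondrially encoded genes 3 and 43, and the same sum over nuclear protein-coding genes other than Lars2 and the erythroid list, chosen after seeing the data, 3 and 38. The fit of all 12 libraries gave 16 and 144, eBayes without a trend 4 and 64, the two-sample test of the study's methods 1 and 3, and no threshold on the fold change 18 and 247. Leaving out single libraries, in fits with fewer samples, the counts ran from 1 to 55 higher and from 0 to 472 lower. The causes of these changes were not tested.

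A paired fit with the replicate number as a block (replicate block) called 0 genes higher and 0 lower with limma, which leaves fewer degrees of freedom. Nothing in the labels makes replicates of the same number a pair. Across genes, deviations from the group means of libraries with the same number had Pearson correlations of 0.05, 0.07 and 0.24, against -0.21 to 0.16 for other pairs.

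Of the values of named genes, 4710 kept direction and stayed called or stayed uncalled, 390 lost the call, 80 gained it and 162, none of them called, changed sign. Genes without a call in either fit count among the 4710. The replicate block, which called 0 genes, thus added 242 to them. The set of named genes holds 41 of the 81 called genes. Of these 41, 40 kept the call without WT hepatocyte replicate 3 and 1 without WT hepatocyte replicate 1, 20 with median-ratio size factors and 1 in the two-sample test of the study's methods. Over the 14 alternatives that can change a median, 425 medians of the 33 lists moved by less than the standard deviation between the WT hepatocyte libraries and 37 by as much or more, while the other 5 alter only the test. That standard deviation holds the spread that leaving out a hepatocyte library probes, so a median could seldom count as moved in those fits. The sinusoidal endothelial median still went from -0.01 to -0.47 without WT hepatocyte replicate 3. Depth limits genes below 1 FPKM.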
